A study of Cicer arietinum with 11 samples.

Results

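The shoot apical meristem of chickpea (Cicer arietinum, genotype ICC4958) was compared with young leaves, with 1 library on each side. The comparison takes 2 of the 11 mRNA libraries of the series, and the other 9 serve as context. Its members are the transcripts whose log2(RPKM + 1) differed by at least 2 between the tissues. RPKM is the read number divided by transcript length and by the number of reads mapped in that library, and a difference of 2 on this scale needs at least 3 RPKM in the higher tissue. There were 3636 such transcripts among the 34760 of the deposited set, a share of 10.5%.

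The meristem library came from 20-day-old plants, and the young leaves from mature plants. The 9 other libraries were a germinating seedling and, from mature plants, flower buds 1 to 4 and flowers 1 to 4. Per the labels, field plots supplied the mature plants and a culture room the seedlings; in which of these the 20-day-old plants grew, how much tissue around the meristem was taken, and how many plants entered a library, the labels do not say. Plant age therefore differs along with tissue, and their parts cannot be told apart. No transgene or treatment is named for any library, and all 11 share the genotype.

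The shoot apical meristem is the dome of dividing cells at the shoot tip from whose flanks leaves, and later flowers, arise. In Arabidopsis its stem cells are kept in number by a feedback loop between the transcription factor WUSCHEL and the peptide CLAVATA3, and homeobox genes of the KNOX family hold its cells in an undifferentiated state. Young leaves are turning from division to expansion and photosynthesis, and messages for light-harvesting proteins and the small Rubisco subunit are known to be among the most abundant in leaf tissue. The deposited files give transcript IDs with no gene names, and 0 of the IDs were found in the table of 29938 RefSeq chickpea genes. The tissue labels could therefore not be checked against markers such as these, what each transcript encodes is not stated, no sequence is shown, and no pathway list was counted.

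Reads were recovered from the RPKM values, and their totals came to 31511021 in the meristem and 27158340 in young leaves, within the range of 14536530 to 35643139 over the 11 libraries. For a transcript as long as the median, 736 bases, 3 reads corresponded to 0.129 RPKM in the meristem and 0.150 RPKM in young leaves. Intervals below are 95% intervals from these reads. They cover counting error only, since reads of PCR-amplified libraries are not independent molecules and neither tissue has a second library, so no difference between the tissues has a replicate check and no p-value is given. In bulk tissue, fewer cells of a type and less RNA per cell cannot be told apart.

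At the deposited scale far more transcripts were higher in the meristem than lower. They numbered 2985 higher (8.59% of all transcripts) and 651 lower (1.87%), so that 82.1% of the differing transcripts were higher in the meristem. The median difference of all 34760 transcripts was itself 0.43 on the log2 scale, and 67.1% of all transcripts had a positive difference. When each library was rescaled by the median of ratios, which sets the typical transcript equal between libraries, the median difference became 0.00 and the counts became 1672 higher (4.81%) and 1459 lower (4.20%), or 53.4% higher. The 1672 were all among the 2985, and all 651 lower transcripts were among the 1459. This nesting was fixed in advance. The rescaling divides the meristem by 1.19 and young leaves by 0.760, so no transcript's difference can rise. Quantile normalization does not force it. There, 1670 of the 1679 higher transcripts were among the 2985, and 608 of the 651 lower ones stayed on the lower list. The size of the imbalance thus depended on the scale.

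**Figure D1:**
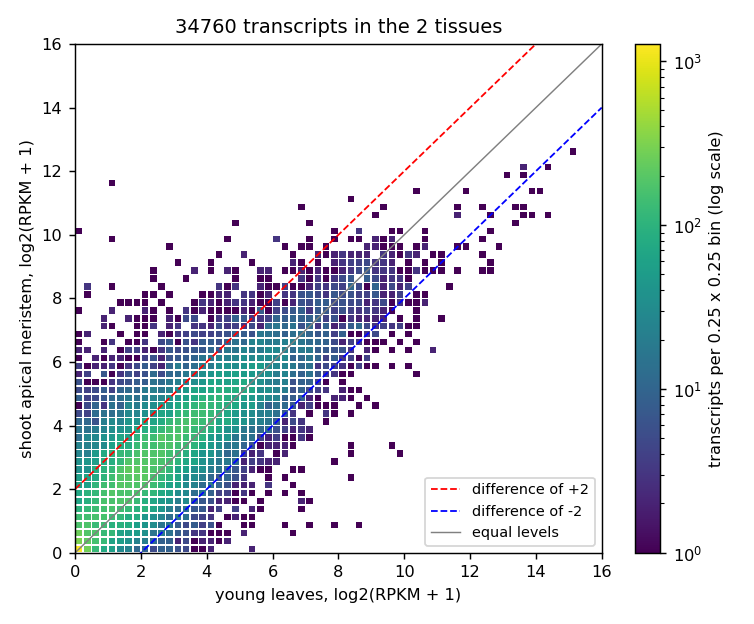
Each square is a bin of transcripts placed by log2(RPKM + 1) in young leaves (x axis) and in the shoot apical meristem (y axis), coloured by the number of transcripts on a log scale. The 2985 transcripts above the upper dashed line lie mostly under 100 RPKM in the meristem, whereas the 651 below the lower dashed line include the most abundant transcripts of young leaves.

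Library makeup differed along with the scale. The 100 highest transcripts held 16.0% of summed RPKM in the meristem and 40.2% in young leaves, and the highest transcript reached 6167 RPKM in the meristem and 35550 RPKM in young leaves. With RPKM rescaled to the same sum in every library, the median difference was 0.65, with 4113 transcripts higher and 502 lower. With the same rescaling on the sum of all but each library's 100 highest transcripts, it was 0.28, with 2486 higher and 855 lower.

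**Figure D2:**
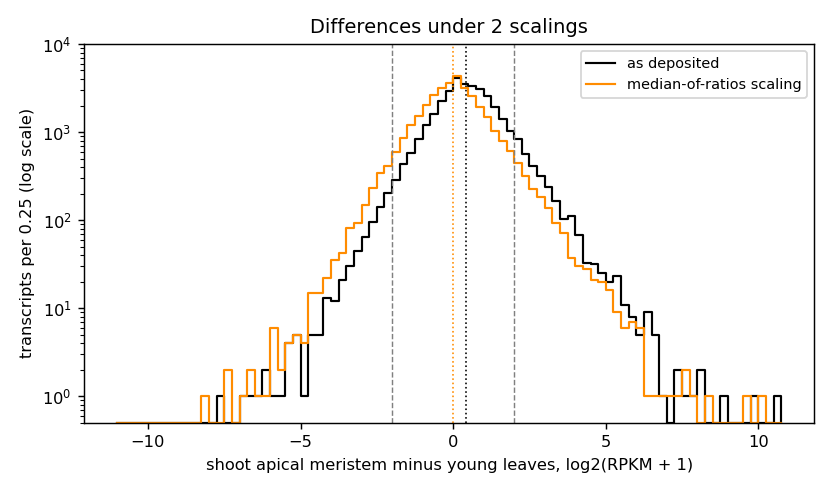
Number of transcripts (log scale; empty bins lie on the lower edge) by difference in log2(RPKM + 1), shoot apical meristem minus young leaves, as deposited and after median-of-ratios scaling. Dotted lines mark the medians of 0.43 and 0.00, and dashed lines the threshold of 2 in each direction, past which lie 2985 higher and 651 lower transcripts as deposited.

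Ca_TC18471 had the largest difference of all transcripts on the log2(RPKM + 1) scale. It had 3273.5 RPKM in the meristem (interval 3252 to 3295) and 1.06 RPKM in young leaves (0.688 to 1.57), a ratio of 3080 (2086 to 4759) and a log2 difference of 10.63. The germinating seedling held 141.9 RPKM. Flower buds 1 to 4 held 2.76, 9.69, 8.75 and 4.43 RPKM, and flowers 1 to 4 held 12.9, 14.0, 9.36 and 45.3 RPKM. The meristem stood highest and young leaves lowest of the 11 libraries, with the seedling second and flower 4 the highest of the reproductive libraries. It was also the most abundant of all transcripts that were higher in the meristem.

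Ca_TC04202 followed, with 1066 RPKM in the meristem (1052 to 1080) and 0.0524 RPKM in young leaves (0.00133 to 0.292), where it had 1 read. The ratio was 20352 with an interval of 3652 to 803901, and the log2 difference was 9.99. Its ratio thus exceeded that of Ca_TC18471, and with a pseudocount of 0.1 its log2 difference did so too, at 12.77 against 11.46. It had 300.3 RPKM in the germinating seedling. Flower buds 1 to 4 held 1.30, 3.03, 1.80 and 1.29 RPKM and flowers 1 to 4 held 2.18, 2.34, 1.12 and 4.10 RPKM. The meristem stood highest, the seedling next at a lower level, the 8 reproductive libraries far below both, and young leaves lowest.

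Among the transcripts that were lower in the meristem, Ca_TC29994 had the largest difference. It had 0.956 RPKM in the meristem (0.310 to 2.23) and 393.5 RPKM in young leaves (375.4 to 412.2), a log2 difference of -7.66. The level in young leaves was 411.7 times that in the meristem, with an interval of 176.1 to 1269. The germinating seedling held 0.504 RPKM, flower buds 1 to 4 held 0.890, 2.07, 3.38 and 2.64 RPKM, and flowers 1 to 4 held 1.70, 3.09, 1.48 and 0 RPKM. The transcript was thus high in young leaves alone, and the meristem lay within the range of the 9 other libraries.

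Ca_TC23283 had a similar profile. It had 0.869 RPKM in the meristem (0.237 to 2.23) and 234.5 RPKM in young leaves (219.7 to 250.1), a log2 difference of -6.98. Young leaves held 269.8 times the meristem level (105.0 to 992.2). The germinating seedling was at 0 RPKM, flower buds 1 to 4 held 0.607, 0.471, 2.69 and 1.84 RPKM, and flowers 1 to 4 held 0.553, 0.469, 1.35 and 0 RPKM. No library other than young leaves exceeded 2.69 RPKM. The recovered lengths of these leaf transcripts were short, at 166 bases for Ca_TC29994 and 146 bases for Ca_TC23283, against 866 bases for Ca_TC18471 and 703 bases for Ca_TC04202.

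**Figure D3:**
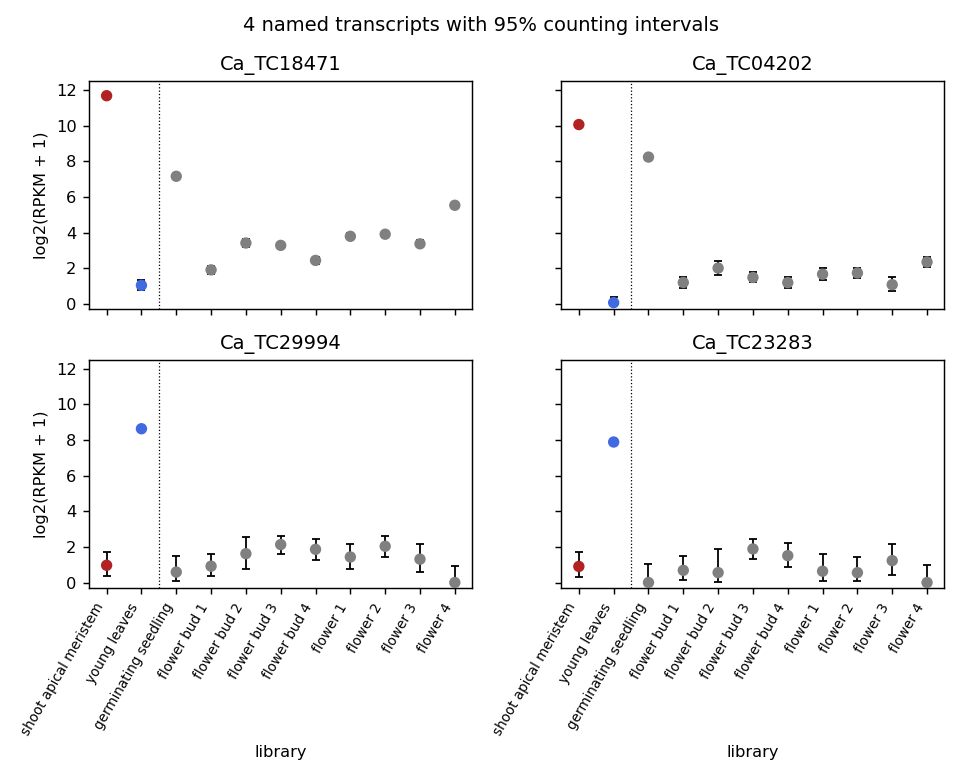
log2(RPKM + 1) of the 4 named transcripts in each of the 11 libraries, with 95% counting intervals (1 library per point, red for the shoot apical meristem, blue for young leaves). Ca_TC18471 and Ca_TC04202 are highest in the meristem and next highest in the germinating seedling, while Ca_TC29994 and Ca_TC23283 exceed 3.38 RPKM only in young leaves.

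Most differences lay not far past the threshold. Of the transcripts higher in the meristem, 2119 (71.0%) differed by 2 to 3 on the log2 scale, 617 by 3 to 4, 158 by 4 to 5, 62 by 5 to 6 and 29 by at least 6. Of those lower in the meristem, 502 (77.1%) differed by 2 to 3, 108 by 3 to 4, 24 by 4 to 5, 11 by 5 to 6 and 6 by at least 6. The median sizes were 2.55 for the higher and 2.47 for the lower transcripts. The rule cuts both lists at 2, which holds these medians close together, so no likeness in size is read from them. At the edge of the rule, the last transcript inside on the higher side had 17.7 RPKM in the meristem and 3.68 RPKM in young leaves, and the first outside had 16.8 RPKM in the meristem and 3.45 RPKM in young leaves. On the lower side the last inside had 0.405 RPKM in the meristem and 4.62 RPKM in young leaves, and the first outside had 14.6 RPKM in the meristem and 61.2 RPKM in young leaves.

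Counting intervals were taken for the ratio of each differing transcript. For all 2985 higher and all 651 lower transcripts the interval of the ratio excluded equality, and for 2503 and 544 of them it lay wholly beyond a 4-fold difference. The same reads chose the lists, so excluding equality was close to certain and is no check on them. The rule also puts every member's ratio past 4-fold, so the 4-fold counts are no check on the lists either. Over all 34760 transcripts the interval lay above equality for 17612 and below it for 6488. It lay wholly beyond 4-fold for 2800 and 614 of all transcripts. The higher transcripts had a median of 312 reads in the meristem and 22 reads in young leaves. The lower ones had a median of 86 reads in the meristem and 719 reads in young leaves. Recovered length had a median of 600 bases among the higher and 799 bases among the lower transcripts, against 1010 bases over the 24032 transcripts with at least 3 RPKM in the meristem and 1182 bases over the 19350 with at least 3 RPKM in young leaves. Transcripts under 300 bases made up 33.7% of the higher and 25.2% of the lower ones, against 21.1% and 15.1% of those backgrounds. Both lists thus held a larger share of short transcripts than these backgrounds. Against all transcripts with a value this held for the higher list only. There the share under 300 bases was 29.8% and the median 736 bases, so the lower list was the longer.

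The tissues differed in how abundance was spread over these transcripts. The 2985 higher transcripts had a median of 17.5 RPKM in the meristem and 1.62 RPKM in young leaves, and held 17.7% of the summed RPKM of the meristem and 1.50% of that of young leaves. The 651 lower transcripts had a median of 3.17 RPKM in the meristem and 27.5 RPKM in young leaves, and held 5.74% of the summed RPKM of the meristem and 32.8% of that of young leaves. At the deposited scale the smaller list thus carried the larger share of its tissue's RPKM. Quantile normalization, which also changes the lists, turned this round, with 15.7% of the meristem's deposited RPKM in the higher list and 13.6% of that of young leaves in the lower list. Levels of at least 1000 RPKM were reached by 7 of the higher transcripts in the meristem and by 42 of the lower ones in young leaves, and levels of at least 100 RPKM by 272 of the higher (9.11%) and 187 of the lower ones (28.7%). Shares of all transcripts at these levels were not taken. The 100 highest transcripts held 16.0% of the meristem's RPKM and 40.2% of that of young leaves. This gap is therefore not read as one between the lists alone. The 10 most abundant higher transcripts held 1.88% of the meristem's RPKM, whereas the 10 most abundant lower ones held 17.8% of that of young leaves. The remaining members held 15.8% in the meristem for the higher list and 15.0% in young leaves for the lower list, so the lists differed in their share mainly through those 10. The single most abundant of these leaf transcripts had 6167 RPKM in the meristem and 35550 RPKM in young leaves, and was the highest transcript of both libraries, so the threshold was passed there without absence from the meristem. In reads, which do not divide by length, the higher list held 15.9% of the meristem's and 1.81% of the leaves', and the lower list 3.03% of the meristem's and 20.5% of the leaves'.

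Complete absence from either tissue was rare. Of the higher transcripts, 197 had 0 reads in young leaves, with 3.00 to 119.0 RPKM and a median of 37 reads in the meristem. Against a floor of 3 reads in the young leaf library, the meristem level was at least 715-fold higher for the most abundant of them and at least 10.6-fold higher for the median one, and for 192 the bound was 4-fold or more. Of the lower transcripts, 26 (3.99%) had 0 reads in the meristem, with 3.10 to 40.2 RPKM and a median of 26 reads in young leaves. Against a floor of 3 reads in the meristem library the median one was at least 10.1-fold lower there. The transcripts at 0 were short, with a median length of 182 bases for the 197 and 160.5 bases for the 26. None of them was at 0 in all 9 other libraries. Of the 197, 159 reached 1 RPKM in the germinating seedling and 151 in at least 1 reproductive library, and 5 stayed under 1 RPKM in all 9. Of the 26, 14 reached 1 RPKM in the seedling and 22 in at least 1 reproductive library, and 4 stayed under it in all 9. Under 1 RPKM, without being necessarily at 0, were 1104 of the higher transcripts in young leaves (37.0%) and 178 of the lower ones in the meristem (27.3%). Over all transcripts the shares under 1 RPKM were 22.2% in young leaves and 14.9% in the meristem. The lists were chosen for a low level in that tissue, so nothing is read from the excess.

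Most lower transcripts were closer to the other 9 libraries in the meristem than in young leaves. For 473 of the 651 (72.7%) the level in young leaves lay farther from the median of the 9 libraries than the level in the meristem did, against 53.4% over all transcripts. With a pseudocount of 0.1 in place of 1 the share was 60.3%, against 54.5% over all transcripts and 59.2% among the higher transcripts, so on that scale the lists hardly differed. Young leaves were the highest of all 11 libraries for 483 of them (74.2%), and the meristem was the lowest for 278 (42.7%). Among all transcripts with at least 3 RPKM in young leaves those shares were 16.7% and 9.82%, but a list chosen for a high leaf and a low meristem level must exceed them. In every one of the 9 libraries most lower transcripts were nearer to the meristem level than to the leaf level, from 63.6% in flower bud 2 to 74.8% in the germinating seedling. Over all transcripts the same share ran from 48.6% in flower 3 to 57.5% in flower bud 1. The leaf and meristem levels used here also chose the list, so a gap from all transcripts can come from that choice. How far it does was not tested.

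At the deposited scale the other libraries lay about midway for the higher transcripts. Young leaves were farther from the median of the 9 than the meristem was for 1336 of the 2985 (44.8%), against 53.4% over all transcripts. The meristem was thus farther for most, by a small margin. That margin depended on the pseudocount: with 0.5 or 0.1 in place of 1 the share was 51.1% and 59.2%, and with 5 it was 26.4%. It depended on scaling and threshold too. The share was 39.6% with median-of-ratios scaling, 35.6% with quantile normalization and 34.6% with a threshold of 3. It was 49.7% with RPKM rescaled to the same sum in every library and 51.8% with a threshold of 1. The meristem was the highest of the 11 libraries for 1927 (64.6%) and young leaves the lowest for 1958 (65.6%). Among all transcripts with at least 3 RPKM in the meristem those shares were 29.3% and 33.0%, which a list chosen for a high meristem and a low leaf level must again exceed. The share of higher transcripts nearer to the meristem level than to the leaf level was 50.7% in the germinating seedling and in flower 4, the highest of the 9, and 40.2% in flower bud 2, the lowest. After the meristem, the germinating seedling most often held the highest level, for 261 of the higher transcripts (8.74%), against 7.21% of all transcripts with at least 3 RPKM in the meristem. After young leaves, flower 3 did so for 54 of the lower transcripts (8.29%), against 8.48% of all with at least 3 RPKM in young leaves. The meristem in the higher list, and young leaves in the lower, held the highest level more often than in these backgrounds. That leaves fewer transcripts for the other libraries, so nearness to a background is not read as a result. In the higher list flower bud 1 held the highest level for 3.35%, against 14.1% of that background. Flower 4 held it for 6.57%, against 6.08%.

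**Figure D4:**
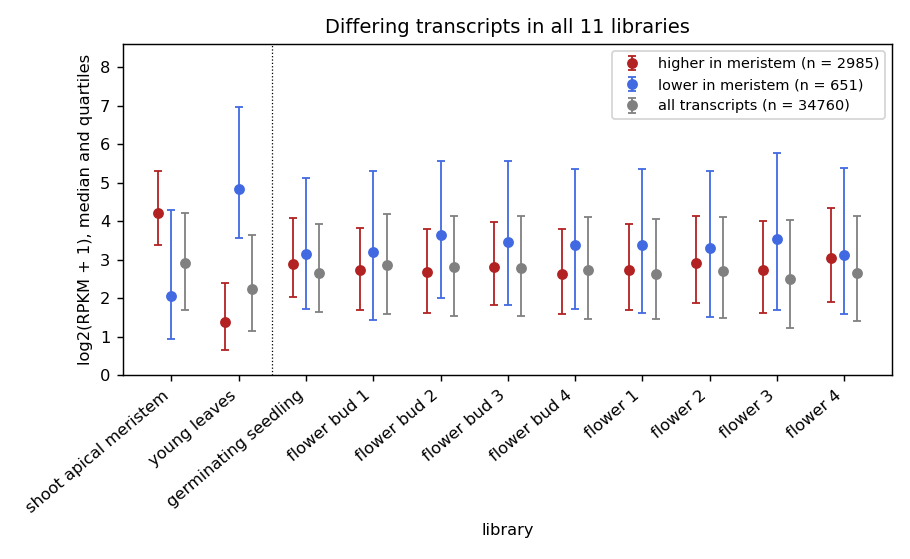
Median and quartiles of log2(RPKM + 1) in each library for the 2985 transcripts higher in the meristem, the 651 lower in the meristem and all 34760 transcripts; the dotted line parts the tissues that chose the lists from the 9 others. In those 9 the higher list lies between 2.62 and 3.03 and the lower list between 3.11 and 3.63.

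Members of both lists were mostly detected in the other libraries too. The median log2(RPKM + 1) of the higher transcripts was 4.21 in the meristem and 1.39 in young leaves, and in the 9 other libraries it ran from 2.62 in flower bud 4 to 3.03 in flower 4. That of the lower transcripts was 2.06 in the meristem and 4.83 in young leaves, and ran from 3.11 in flower 4 to 3.63 in flower bud 2 in the others. At least 1 RPKM in all 11 libraries was reached by 1601 of the higher (53.6%) and 396 of the lower transcripts (60.8%). Those shares lay under the 82.3% of all transcripts with at least 3 RPKM in the meristem and the 89.4% of those with at least 3 RPKM in young leaves, and a list chosen for a low level in 1 tissue must fall short of them. In the 9 other libraries, 85.2% (flower bud 4) to 94.2% (germinating seedling) of the higher transcripts reached 1 RPKM, against 92.6% (flower 3) to 97.7% (germinating seedling) of all with at least 3 RPKM in the meristem.

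Along the reproductive stages, taken in the order of their labels, the higher transcripts stood higher relative to the rest at the end than at the start. Their median in flower 4 lay 0.38 above that of all transcripts on the log2 scale, and in flower bud 1 it lay 0.11 under it. With median-of-ratios scaling, which also changes the list, the distances were 0.30 in flower 4 and -0.35 in flower bud 1. Their share of summed RPKM was 5.57% in flower bud 1, 5.25% in flower bud 2, 5.92% in flower bud 3 and 6.04% in flower bud 4, and then 6.53%, 7.63%, 8.79% and 10.7% in flowers 1 to 4. The share was thus larger at each stage after flower bud 2 than at the one before. In flower 4, 28.5% of the higher transcripts were at least 1 on the log2 scale above their level in flower bud 1 and 13.5% as far below it, while over all transcripts 12.8% were above and 16.2% below. The lower transcripts held 8.37%, 11.8%, 10.7% and 7.30% of summed RPKM in flower buds 1 to 4 and 11.9%, 8.51%, 8.98% and 6.34% in flowers 1 to 4, with no steady course. The median of the lower transcripts lay 0.34 above that of all transcripts in flower bud 1 and 0.46 above it in flower 4. In flower 4, 15.8% of them were at least 1 above their level in flower bud 1 and 17.4% as far below it. Each stage is 1 library, so these courses have no replicate check either.

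Where a tissue's level was matched elsewhere depended on direction. Of the higher transcripts, 812 (27.2%) had no library among the 9 within 1 log2 unit of the meristem level or above it, and 210 (7.04%) were matched in the seedling but in no reproductive library. Another 986 (33.0%) were matched in at least 1 reproductive library but not in the seedling, and 977 (32.7%) in both. Of the lower transcripts, 301 (46.2%) had no match to the leaf level among the 9, 23 (3.53%) were matched in the seedling alone, 230 (35.3%) in reproductive libraries alone and 97 (14.9%) in both. A leaf level without a match was thus more frequent among the lower transcripts than a meristem level without a match among the higher ones. With median-of-ratios scaling the shares without a match were 52.6% of the lower and 28.3% of the higher transcripts. With quantile normalization the gap was narrower, at 45.1% of the lower and 34.2% of the higher transcripts. Among all transcripts with at least 3 RPKM in the tissue, 5.10% had no match to the meristem level and 4.55% none to the leaf level. Lists chosen for a high level in that tissue must exceed these shares, so nothing is read from that excess. In the same backgrounds, 1.76% were matched to the meristem level in the seedling alone, 18.4% in reproductive libraries alone and 74.7% in both. For the leaf level those shares were 0.79%, 12.0% and 82.7%. How far the choice of the lists makes the gap from these shares was not tested. The seedling is 1 library against 8 reproductive ones. A match in reproductive libraries alone thus had more libraries to come from than a match in the seedling alone.

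**Figure D5:**
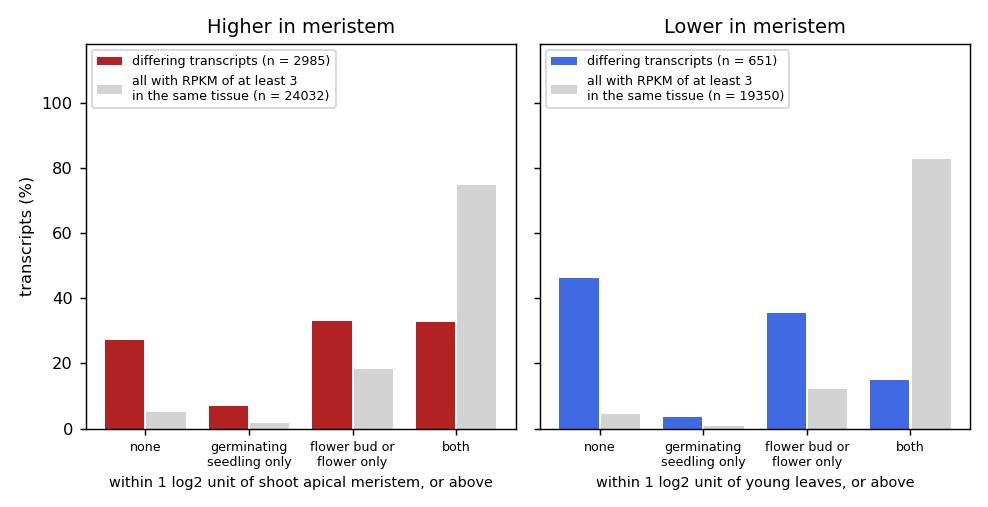
Share of transcripts (%) by which of the 9 other libraries came within 1 log2 unit of the tissue's level or exceeded it, for transcripts higher in the meristem (left, against the meristem level) and lower in it (right, against the leaf level), beside all transcripts with at least 3 RPKM in that tissue. Transcripts with no match make up 27.2% of the higher and 46.2% of the lower list, against 5.10% and 4.55% of the grey backgrounds, an excess that the choice of the lists by a high level in that tissue brings with it.

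Levels set apart from all other libraries were a minority. The meristem lay at least 2 on the log2 scale above each of the 10 other libraries for 219 transcripts, and young leaves lay as far above each of their 10 for 85. These were 0.630% and 0.245% of all transcripts, but 7.34% of the higher and 13.1% of the lower list, which differ in size. Conversely, young leaves lay at least 2 below every other library for 103 of the higher transcripts, and the meristem lay as far below every other library for 13 of the lower ones. These were 0.296% and 0.0374% of all transcripts, and 3.45% and 2.00% of their lists. Median-of-ratios scaling turned the order of the first pair of counts round, with 144 transcripts set apart in the meristem and 250 in young leaves. Quantile normalization kept it, with 198 in the meristem and 144 in young leaves. Transcripts set apart by a low level were fewer in the meristem than in young leaves under each of these scalings, at 20 in the meristem and 49 in young leaves with median-of-ratios scaling and 22 in the meristem and 46 in young leaves with quantile normalization.

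Among the 55 pairs of libraries, the meristem and young leaves ranked 6th by the number of transcripts that differed by at least 2. The meristem differed from the germinating seedling in 2415 transcripts, the fewest of its pairs, and from flower bud 1 in 2586. Young leaves differed from flower bud 2 in 2730, the fewest of their pairs, and from flower 3 in 4009, the most of any pair. These counts share libraries and are given as a description.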

How the data were processed

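mRNA of 11 chickpea tissues or stages was sequenced, 1 library each. Per the series text, the authors used NGS QC Toolkit to filter the reads, took 34760 chickpea transcripts as the mapping target and deposited an RPKM for each; DESeq results named there are not used here. Neither the aligner nor the handling of reads that fit several transcripts is stated, which leaves the values of near-identical transcripts uncertain. The 128 blank rows per file were left out.

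RPKM is reads divided by length and library total, so relative totals were taken from the commonest exact ratio between libraries, totals from the spacing that makes lengths whole, and each length as the shortest of at least 100 bases giving whole reads in all libraries. All 34703 transcripts with a value gave whole reads (100.0% of values, within 4e-09 of the value plus 3e-06 reads); 57 were at 0 throughout. The reads so recovered made up between 99.952% and 99.998% of each total. Lengths and reads rest on this reconstruction. The steps were tested on simulated data.

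Transcripts differing by at least 2 in log2(RPKM + 1), meristem minus young leaves, were counted over all 34760, with no filter and no test. This scale understates differences of low transcripts. Ratio intervals are exact conditional (Clopper-Pearson) and level intervals exact Poisson, at 95%. The 2 largest differences in each direction are named. Python 3.11.15, numpy 2.4.6, pandas 2.3.3 and scipy 1.17.1 were used. The alternatives were other pseudocounts, scalings, filters, thresholds, thinning and a length minimum. The members, lists and measures were chosen with earlier results of these data known.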

Additional observations from a re-analysis of the deposited data

How the results depend on the processing

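No paired analysis was possible because each tissue had 1 library, so neither tissue's library could be left out. Each of 4 counts was recomputed under 14 alternatives: transcripts higher in the meristem (2985), lower in it (651), and those of each list with young leaves farther than the meristem from the median of the other 9 libraries (1336 of the higher, 473 of the lower). They are given below in that order wherever 4 are listed. A pseudocount of 0.1 gave 5512, 1379, 3265 and 831, and of 5 gave 949, 268, 251 and 215. Median-of-ratios scaling gave 1672, 1459, 662 and 1118, and quantile normalization 1679, 1310, 598 and 963. A threshold of 1 gave 9962, 2780, 5158 and 1940, and of 3 gave 866, 149, 300 and 107. Transcripts of at least 500 bases gave 1684, 411, 789 and 283. The third count alone moved by over 1.5 times with a pseudocount of 0.5 (2014) and with RPKM rescaled to the same sum in every library (2043). Under the other alternatives, which were 2 filters on low values, rescaling without the 100 highest transcripts, the counting interval beyond 4-fold and thinning to the shallowest library, all 4 counts stayed within 1.5 times. Higher transcripts outnumbered lower ones in all 14, by shares of 53.4% (median-of-ratios scaling) to 89.1% (the same sum in every library). Young leaves were farther from the other libraries in 60.3% to 80.2% of the lower transcripts over the 14 and in 26.4% to 59.2% of the higher ones, and the lists were nearly level at a pseudocount of 0.1 (60.3% and 59.2%). Leaving out each of the 9 other libraries in turn, an alternative chosen after seeing the data, gave 1314 to 1373 for the third count and 470 to 481 for the last. The 4 named transcripts kept their direction under the 8 alternatives that apply to them. Their log2 differences ran from 9.08 to 11.46 for Ca_TC18471, 7.73 to 12.77 for Ca_TC04202, -8.54 to -6.06 for Ca_TC29994 and -7.92 to -5.35 for Ca_TC23283. Depth limits the low side of these ratios, which rests on 25 reads or fewer.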
